A study of Mus musculus with 3 samples.

Results

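The 35 genes described here encode lysosomal proteins: 14 subunits and accessory proteins of the vacuolar proton pump, 10 hydrolases, 7 membrane proteins, 3 soluble binding proteins or cofactors of the lumen, and the transcription factor Tfeb. They were taken from a fixed list of gene symbols, and all 35 were present among the 31053 features of each matrix and had UMIs (unique molecular identifiers, each counting 1 captured RNA molecule) in the kept cells of every mouse. The cells came from 3 mice of the strain FVB/N-Tg(MMTVPyVT)634Mul/J, in which the MMTV promoter drives the polyoma middle T antigen in mammary epithelium, and each mouse gave 1 mammary adenocarcinoma of 750 mm3. Single-cell suspensions made with collagenase I and DNase I were sorted as CD45+ Ly6G- CD11b+ F4/80+ cells, a gate for tumour-associated macrophages, and each tumour became 1 single-cell library. There was 1 group of 3 mice and no other group to set it against, and the comparisons below are therefore between macrophage states within the same tumours.

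Lysosomes are the acidic compartments in which cells break down material taken up from outside or delivered by autophagy, and macrophages are rich in them because they engulf dead cells, debris and microbes. The vacuolar ATPase acidifies the lumen: its cytosolic V1 sector hydrolyses ATP and turns a rotor, and its membrane V0 sector carries the protons across. Acid hydrolases in the lumen digest lipids, glycans, glycogen and peptides, membrane proteins line the organelle and move its products out, and TFEB, held in the cytosol when nutrients are plentiful, can enter the nucleus and switch on many of these genes through an E-box-type motif in their promoters.

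After removal of barcodes with fewer than 500 genes or more than 15% mitochondrial UMIs, 661, 2099 and 6978 cells of mice 1, 2 and 3 were kept, with median depths of 14996, 13579 and 9319 UMIs per cell. The share of barcodes over the mitochondrial limit was 36.0% in mouse 1, 12.1% in mouse 2 and 4.13% in mouse 3, and mice 2 and 3 shared 8 barcodes. Csf1r was detected in 95.7% ± 0.96 (SD, n = 3 mice) of cells, Adgre1, which encodes F4/80, in 86.5% ± 1.62, and Ly6g in 0. Clustering without the lysosome genes gave 11 macrophage classes of 9677 cells. Of these, 6 were named from marker lists (LYVE-1 resident-like, inflammatory-like, interferon-like, hypoxia-like, cycling-like, and heat-shock and immediate-early-like). The others keep their numbers: cluster 0 (led by Il12b, Cd207, Ccl22 and Mmp13), cluster 6 (S100a4, Timp1, Nrg1, Olr1), cluster 7 (Sesn1, Abhd15, Asb2, Hhex), cluster 9 (Retnla, Ifitm6, Lyz1, Ear2) and cluster 10 (Mmp12, Gdf15, Rnf128, Slc40a1). Raised markers were not particular to the named classes. Cluster 0 had 6 of 10 inflammatory markers raised, as many as the inflammatory-like class. Cluster 9 had all 12 LYVE-1 resident markers raised. Clusters 2 and 8, which make up the LYVE-1 resident-like class, both had all 9 heat-shock and immediate-early markers raised. The remaining 61 cells were tumour epithelium-like and stayed out of all fits. Mouse 1 had only 9 interferon-like and 12 cluster 9 cells, so interferon-like values come from mice 2 and 3. Median depth ranged from 7644 UMIs per cell in the inflammatory-like class to 27332 in cluster 9. Summed markers of other lineages stayed at 33.7 to 65.8 CPM (UMIs per 1000000 UMIs of the summed cells) for epithelium, against 26570 CPM in the epithelium-like cells, and at 72.7 to 205.6 CPM for B cells, 8.24 to 68.6 for T cells and 22.0 to 40.4 for neutrophils. The part of these RNAs, of depth and of the mitochondrial filter in the differences between classes was not tested.

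Over all macrophage classes, the lumen and membrane proteins held the highest levels of the 35 genes, and the regulator, the calcium channel and 1 pump subunit the lowest. CPM of a 3' UMI library does not scale with transcript length, so the levels of different genes are set side by side without a length correction. The most abundant was Psap, the precursor of the saposins that present sphingolipids to their hydrolases, at 3247 ± 330.4 CPM (SD, n = 3 mice). It was followed by Cd63, a tetraspanin of late endosomes and exosomes (1632 ± 128 CPM), Npc2, the soluble carrier that hands cholesterol to NPC1 (1226 ± 84.5 CPM), Lamp1, a heavily glycosylated protein that lines the lysosomal membrane (1100.5 ± 69.3 CPM), and Grn, which encodes progranulin (889 ± 108 CPM). Cd68, the macrophage-rich relative of LAMP proteins, stood at 711 ± 69.2 CPM. The leading hydrolases were Man2b1, the lysosomal alpha-mannosidase (610.1 ± 51.5 CPM), and Hexa, a hydrolase that acts on the ganglioside GM2 (570.1 ± 25.8 CPM). Within the pump, Atp6v1g1 (489 ± 25.2 CPM) and Atp6v0b (471 ± 34.2 CPM) were highest. Tfeb (16.9 ± 1.02 CPM) and Mcoln1, the lysosomal calcium channel TRPML1 (15.1 ± 1.86 CPM), were among the lowest.

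The lowest level belonged to Atp6v0c, the proteolipid that forms the proton-carrying ring of V0, listed at 4.05 ± 0.62 CPM with 510 UMIs in all fitted sums. Reads of a gene that are shared with a near-identical copy can be lost or moved in counting, and 21.8% of the 91-base words in the last 500 bases of Atp6v0c transcripts also occur in the pseudogene Atp6v0c-ps2. The same held for 18.3% of the words of Cd63 (Cd63-ps) and 7.38% of those of Atp6v1f. The values of these 3 genes are therefore uncertain. The shares of words do not give the share of reads affected, which was not measured. The tumour epithelium-like cells (61 cells, 621452 UMIs, pooled over mice) give a level in another cell type of the same sort. The macrophage mean was above that level for 32 of the 35 genes and not for Atp6v1d, Atp6v1e1 and Lipa. For example, Cd68 had 246 CPM, Grn 289.6 CPM and Psap 1266 CPM in the epithelium-like cells. These cells come from the macrophage gate and may hold free macrophage RNA, which was not tested.

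**Figure D1:**
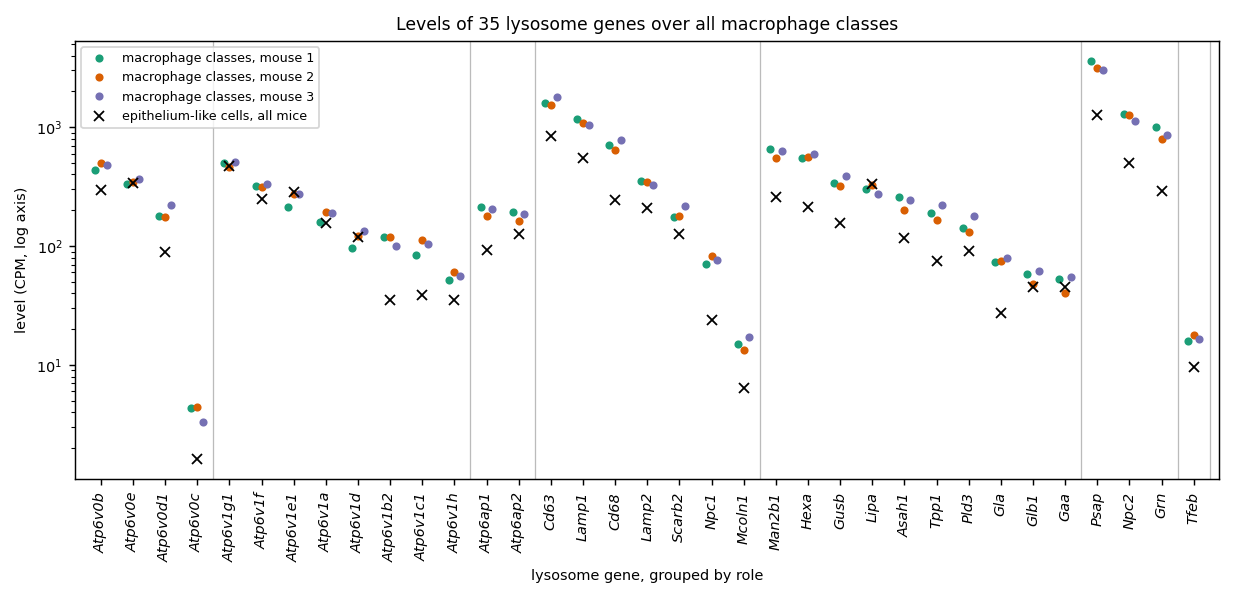
Level of each of the 35 lysosome genes over all macrophage classes (points, 1 per mouse, CPM on a log axis) and in the pooled tumour epithelium-like cells (crosses), grouped by role. Psap is highest and Atp6v0c lowest in each mouse, and the crosses lie below the macrophage mean for all genes but Atp6v1d, Atp6v1e1 and Lipa.

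Promoters were looked up because TFEB and its relatives bind the E-box CACGTG, most strongly within the longer CLEAR element, in which GT precedes and AC follows it. RefSeq promoter sequences of GRCm38.p6 (250 bases before to 50 after the transcription start) were matched for 29 of the 35 genes. The motif CACGTG, which reads the same on both strands, was in the promoters of 9 of these 29 genes (31.03%), against 12.3% of the 8329 genes of the fit with a promoter and 8.09% of all 27025 genes with one. The longer TCACGTGA, which contains CACGTG, was in 5 of 29 (17.2%), against 2.40% of the genes of the fit. The full CLEAR element was in none of the 29, against 0.876% of the genes of the fit. The 9 windows follow, 5′ to 3′ on the gene's strand, because they show how the motif sits near the start of pump, membrane and hydrolase genes. Capitals mark CACGTG, with up to 15 bases kept on each side and none beyond 10 after the start.
Atp6v0b: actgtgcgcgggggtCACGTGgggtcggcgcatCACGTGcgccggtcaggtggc
Atp6v0d1: aggccctactgcggtCACGTGagacgcg
Atp6v0e: ctttagcgcgccgatCACGTGa
Atp6v1a: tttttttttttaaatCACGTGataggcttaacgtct
Lamp1: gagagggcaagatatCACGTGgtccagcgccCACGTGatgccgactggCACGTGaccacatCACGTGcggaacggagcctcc
Mcoln1: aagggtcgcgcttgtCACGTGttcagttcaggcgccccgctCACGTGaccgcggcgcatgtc
Gaa: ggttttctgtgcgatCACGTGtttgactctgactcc
Gla: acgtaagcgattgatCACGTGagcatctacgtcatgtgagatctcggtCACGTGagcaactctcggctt
Glb1: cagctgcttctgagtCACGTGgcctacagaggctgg

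The windows of the pump genes lie at chr4:117887327-117887380, minus strand (Atp6v0b), chr8:105566055-105566082, minus strand (Atp6v0d1), chr17:26676384-26676405, plus strand (Atp6v0e) and chr16:44139370-44139405, minus strand (Atp6v1a). Those of the membrane genes lie at chr8:13159085-13159166, plus strand (Lamp1) and chr8:3500433-3500494, plus strand (Mcoln1). The hydrolase windows lie at chr11:119267808-119267843, plus strand (Gaa), chrX:134601179-134601247, minus strand (Gla) and chr9:114401015-114401050, plus strand (Glb1). Lamp1 carries 4 copies within 82 bases, and Atp6v0b, Mcoln1 and Gla carry 2 each. Set beside the calls between the 11 classes described further on, the 9 genes with CACGTG were called higher in 13.1% and lower in 13.1% of their 99 pairs of gene and class. The 20 genes whose promoters lack it were called higher in 20.9% and lower in 18.6% of 220 pairs, and all tested genes in 11.2% and 8.58%. By class, 6 of the 9 and 13 of the 20 were lower among cycling-like cells (12% of all genes), 2 and 10 were lower in cluster 9 (12.4%), 3 and 3 were lower in cluster 7 (15.8%), and 4 and 11 were higher in the inflammatory-like class (13.3%). A match is a description of the letters and says nothing of binding in these cells.

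Nearly all of the lysosome genes differed between macrophage states, with a smaller median range than over all tested genes. In edgeR's quasi-likelihood F test on UMIs summed per mouse and class, 34 of the 35 passed a Benjamini-Hochberg adjusted p of 0.05 for any difference among the 11 classes, where 71.8% of the 9211 tested genes did. The exception was Atp6v0c (adjusted p = 0.463). The range between the highest and the lowest class mean had a median of 0.78 on the log2 scale over the 35 genes, against 1.17 over all tested genes. It was 1.04 over the 7643 genes with a mean level between the lowest and the highest of the 35. That window is wide (2.07 to 11.7 in log2 CPM) and does not match the genes 1 by 1. Among the 35 the range ran from 0.28 for Atp6v0e, a small V0 subunit, to 1.86 for Cd63. Without mouse 1 the count was 34 (69.7% of all genes), without mouse 2 it was 24 (35%) and without mouse 3 it was 25 (41.6%).

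Each class was then set against the unweighted mean of the other classes, with the mouse as a block. A gene is called higher or lower at an adjusted p under 0.05. How libraries are scaled matters here: TMM, edgeR's default, sets the bulk of genes equal between sums, whereas scaling to the library total moves the median gene by between -0.23 (cluster 0) and 0.22 (cluster 7) on the log2 scale. Both scalings are given, and log2 differences are from TMM unless stated. Of 385 pairs of gene and class, 67 were called higher and 63 lower with TMM, and 42 and 50 of these were called in the same direction on library totals. Over all tested genes, 11.2% of such pairs were called higher and 8.58% lower with TMM. None of the 385 pairs was called in opposite directions. The scalings differ by a similar amount for all genes of a class, so a call in the direction of that shift can hardly be lost. Over all tested genes, all 1673 higher calls of cluster 7, all 965 lower calls of cluster 0 and all 610 lower calls of cluster 6 held. A call that held in that direction is thus no check of the gene. Differences were modest: 23 called pairs reached 0.5 on the log2 scale, and 2 reached 1. With TMM, Cd68 was called in the most classes (5 higher, 4 lower), 31 genes were called in both directions, Atp6v0e only higher (in cluster 0), and Atp6v0d1 and Atp6v1g1 only lower. How many of all tested genes were called in both directions was not counted. On library totals Atp6v0d1 (0.27), Atp6v1g1 (0.27) and Atp6v0e (0.19) were all called higher in cluster 10, and Atp6v1g1 also among LYVE-1 resident-like cells (0.16).

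**Figure D2:**
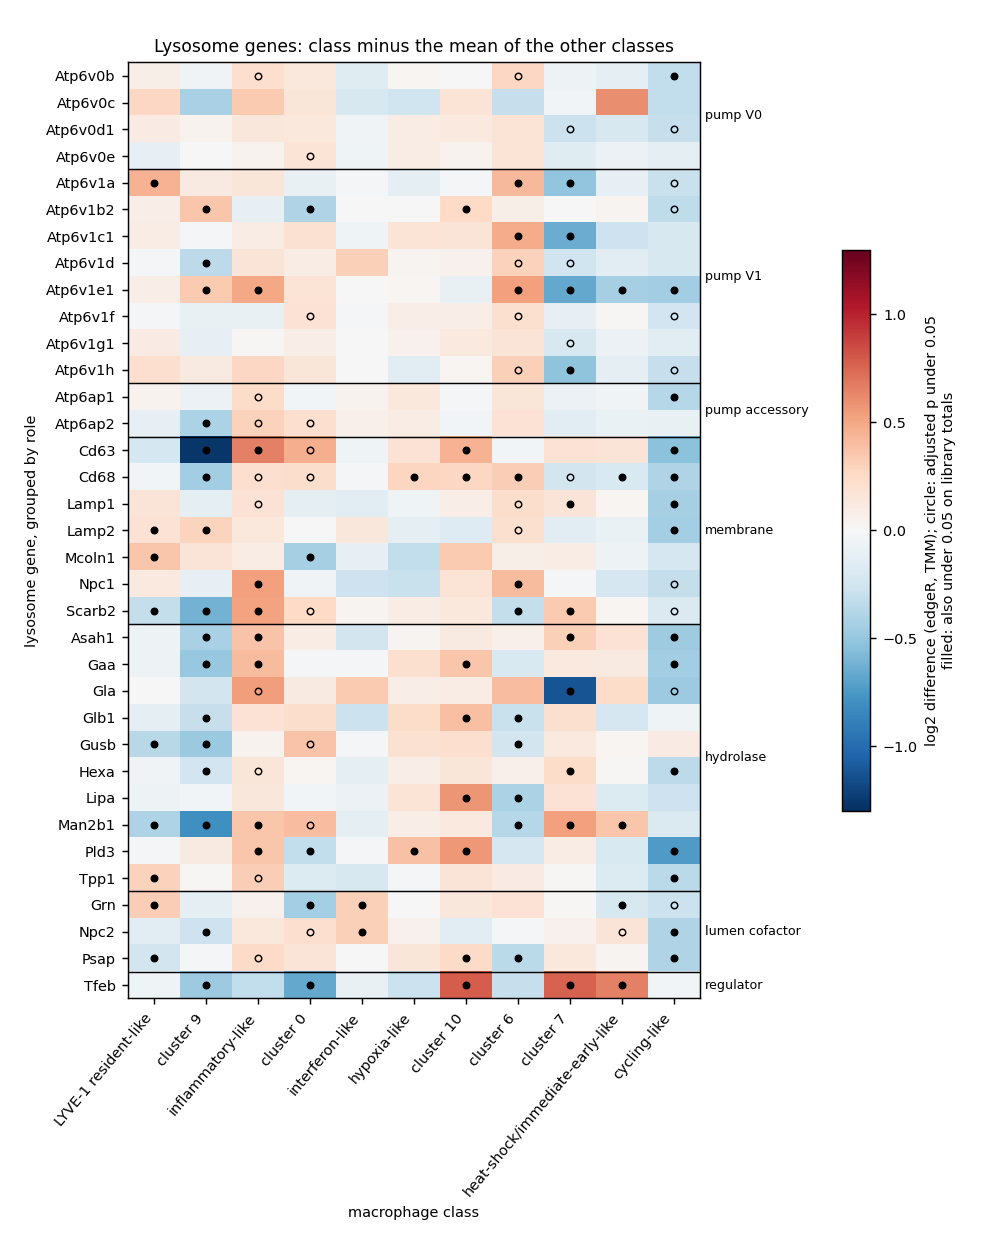
Log2 difference of each of the 35 lysosome genes in each macrophage class from the mean of the other classes (colour, edgeR with TMM scaling), rows grouped by role. Open circles mark an adjusted p under 0.05 with TMM and filled circles also on library totals. The cycling-like column holds 23 lower calls and 14 filled ones, the inflammatory-like column 17 higher calls and 8 filled ones, and the 9 higher calls of cluster 0 are all open, that is, lost on library totals.

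The proton pump varied least in its summed level. The 14 pump genes summed to between 2721 ± 149.7 CPM (SD, n = 3 mice) in the heat-shock and immediate-early-like class and 3374 ± 316 CPM in cluster 10. Of the pump genes, Atp6v1b2 (0.96), Atp6v1d (0.92), Atp6v0c (0.90) and Atp6v1e1 (0.82) had the widest log2 ranges between class means, and Atp6v0e (0.28) the narrowest. Atp6v1e1, a peripheral stalk subunit (mm10 chr6:120794305-120822793), had 283, 362 and 327 CPM in cluster 6 and 305, 327 and 326 CPM in the inflammatory-like class, in the order of mice 1, 2 and 3, which is used throughout. It had 167, 175 and 209 CPM in cluster 7 and 149.6, 189 and 216 CPM in the heat-shock and immediate-early-like class. The first pair lay above the second in every mouse. The log2 differences were 0.54 ± 0.08 (SE, adjusted p = 1.3e-06) in cluster 6, 0.50 ± 0.08 (6.9e-06) in the inflammatory-like class, -0.67 ± 0.08 (5e-08) in cluster 7 and -0.43 ± 0.08 (0.00027) in the heat-shock class, all held on library totals. An overlapping same-strand gene, Gm25193, could share its reads.

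Atp6v1a, the catalytic A subunit, had 215, 246 and 241 CPM among LYVE-1 resident-like cells and 132, 143 and 138 CPM in cluster 7. The groups did not overlap, with log2 differences of 0.45 ± 0.08 (adjusted p = 8.8e-05) and -0.52 ± 0.10 (adjusted p = 4.6e-05) in edgeR. Atp6v1b2, the B subunit of macrophages and other non-renal cells, had 70.03, 85.8 and 68.9 CPM in cluster 0 (-0.39 ± 0.08 on the log2 scale, adjusted p = 0.00027) and 179, 142 and 121 CPM in cluster 9 (0.36 ± 0.08, adjusted p = 0.0005). Cluster 0 lay below cluster 9 in each mouse. Atp6v1d, of the rotor, had 44.8, 105 and 118 CPM in cluster 9, lowest in mouse 1, where the class had 12 cells (-0.34 ± 0.09, adjusted p = 0.00466). Atp6v1c1, whose product helps V1 and V0 hold together, was lower in cluster 7 (71.1, 70.3 and 79.3 CPM; -0.65 ± 0.11, adjusted p = 1e-05) and higher in cluster 6 (115, 144 and 117 CPM; 0.48 ± 0.10, adjusted p = 0.00036). Both calls held on library totals. Atp6v0c had 4.92, 9.87 and 3.53 CPM in the heat-shock and immediate-early-like class and 2.04, 5.70 and 1.71 CPM in cluster 6, with few UMIs behind each value, and passed the test in no class.

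Among the membrane proteins, Cd63 showed the widest spread of all 35 genes and cluster 9 stood apart. Cd63 (mm10 chr10:128900989-128912822) had 334, 877 and 1049 CPM in cluster 9, 1322, 1277 and 1312 CPM in the cycling-like class, 2098, 2456 and 2530.5 CPM in the inflammatory-like class and 2209.7, 2405 and 2778 CPM in cluster 10. Cluster 9 was the lowest of the fitted classes in every mouse. In mouse 1 it had only 12 cells, and the interferon-like class had no sum. The difference was -1.27 ± 0.15 on the log2 scale in cluster 9 (adjusted p = 9.2e-07), -0.53 ± 0.14 in the cycling-like class (0.00502), 0.66 ± 0.12 in the inflammatory-like class (0.00046) and 0.45 ± 0.13 in cluster 10 (0.0217), by edgeR. Cluster 0, at 1736, 2109 and 2091 CPM, was called higher with TMM (0.48 ± 0.12, adjusted p = 0.00745) but not on library totals (0.25).

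Cd68 (mm10 chr11:69664213-69666153) followed a like order. It had 469, 509 and 661 CPM in cluster 9, 574, 599 and 675 in the cycling-like class, 929, 801 and 879.6 in the hypoxia-like class and 879, 892 and 1051 in cluster 10. Both low classes lay below both high ones in each mouse, with log2 differences of -0.45 ± 0.07 (adjusted p = 4.8e-06), -0.39 ± 0.07 (2e-05), 0.28 ± 0.07 (0.0048) and 0.27 ± 0.07 (0.00555), and all were called on library totals as well. Lamp1 (mm10 chr8:13159161-13175338) had 896, 949 and 878 CPM in the cycling-like class (-0.43 ± 0.07, adjusted p = 4.1e-06) and 1434, 1425 and 1216 CPM in cluster 7 (0.17 ± 0.07, adjusted p = 0.0437). Lamp2, which also serves chaperone-mediated autophagy, was lower in the cycling-like class (264, 287 and 279.8 CPM; -0.44 ± 0.07, adjusted p = 5.4e-06) and, unlike Cd63 and Cd68, higher in cluster 9 (496, 375 and 379.9 CPM; 0.28 ± 0.07, adjusted p = 0.00227).

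Scarb2, also known as LIMP-2, an integral protein of the lysosomal membrane (mm10 chr5:92441314-92506833), had 121, 127 and 159 CPM in cluster 9, 129.8, 146 and 173 in cluster 6, 232, 241 and 289 in the inflammatory-like class and 249, 283 and 287 in cluster 7. The lower pair of classes lay below the higher pair in every mouse, and the log2 differences ran from -0.61 ± 0.08 (adjusted p = 7.1e-08) in cluster 9 to 0.52 ± 0.07 (7.4e-07) in the inflammatory-like class. Npc1, the membrane exporter of cholesterol, had 131, 107 and 81.7 CPM in the inflammatory-like class (0.53 ± 0.11, adjusted p = 0.00022) and 73.6, 105 and 91.2 CPM in cluster 6 (0.41 ± 0.10, adjusted p = 0.0024). Mcoln1 had 2.35, 11.5 and 11.02 CPM in cluster 0 and 20.1, 16.2 and 21.3 CPM among LYVE-1 resident-like cells. Cluster 0 was the lower in each mouse (-0.43 ± 0.16, adjusted p = 0.0426) and LYVE-1 resident-like cells were called higher (0.36 ± 0.11, adjusted p = 0.0147).

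**Figure D3:**
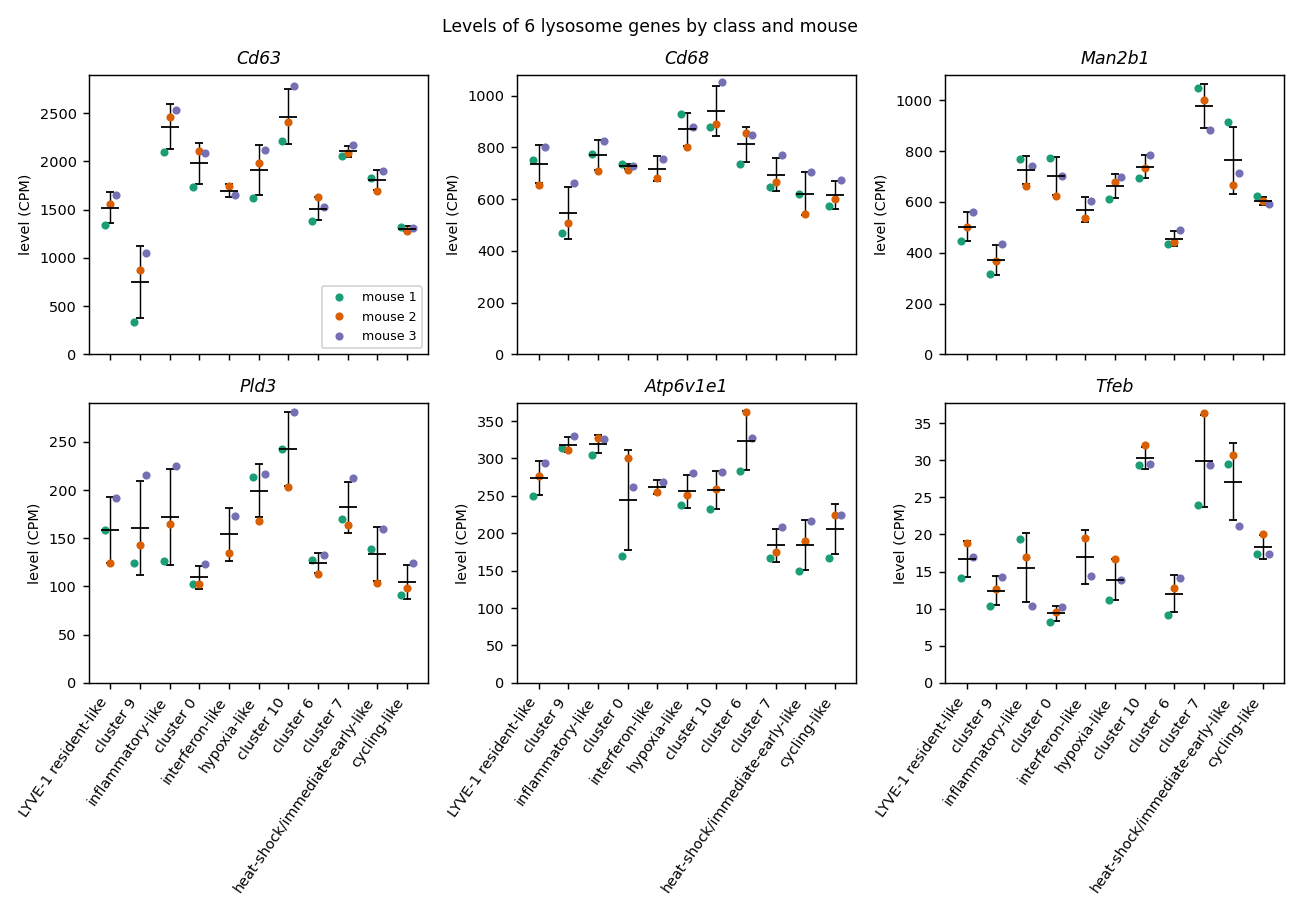
Levels of Cd63, Cd68, Man2b1, Pld3, Atp6v1e1 and Tfeb in each macrophage class (points, 1 per mouse, CPM; bars, mean ± SD over the mice with at least 10 cells). Cluster 9 is lowest for Cd63, Cd68 and Man2b1, cluster 7 is high for Man2b1 and low for Atp6v1e1, and Tfeb is highest in cluster 10, cluster 7 and the heat-shock and immediate-early-like class.

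In summed CPM, which is scaled to the library total and weighted by the abundant genes, the hydrolases were lowest in clusters 9 and 6 and highest in clusters 7 and 10. The 10 hydrolase genes summed to 1840.5, 2053 and 2413 CPM in cluster 9 and 2121, 2217 and 2348 CPM in cluster 6, and to 3592, 3347 and 3376 CPM in cluster 7 and 3222, 3329.9 and 3506 CPM in cluster 10. The low and the high classes did not overlap. With TMM the order was another: the median log2 difference over the 10 genes was lowest in the cycling-like class (-0.34) and highest in the inflammatory-like class (0.34), against -0.27 in cluster 9, -0.21 in cluster 6, 0.16 in cluster 7 and 0.20 in cluster 10. Man2b1 (mm10 chr8:85083270-85098282) had 317, 367 and 434 CPM in cluster 9 and 1048, 1002 and 881 CPM in cluster 7, more than double in each mouse. The log2 differences were -0.80 ± 0.08 (adjusted p = 6.4e-10) and 0.54 ± 0.07 (adjusted p = 1.8e-07). Cluster 6 and LYVE-1 resident-like cells were also called lower, and the inflammatory-like and the heat-shock and immediate-early-like classes higher, on both scalings.

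Pld3, a membrane-anchored exonuclease of endolysosomes that degrades single-stranded nucleic acids (mm10 chr7:27532000-27553218), had 91.1, 98.1 and 124 CPM in the cycling-like class, against 243, 203 and 280.4 CPM in cluster 10. The cycling-like class was lower in each mouse. The log2 difference was -0.74 ± 0.09 in the cycling-like class (adjusted p = 8.4e-09) and 0.56 ± 0.09 in cluster 10 (2.1e-05). Lipa, the acid lipase that splits cholesteryl esters and triglycerides, had 598, 463 and 398 CPM in cluster 10 (0.57 ± 0.13, adjusted p = 0.00626) and 147, 293 and 197 CPM in cluster 6 (-0.42 ± 0.14, adjusted p = 0.0439). The values did not overlap, but their spread within each class was large. Gaa, the glycogen-splitting alpha-glucosidase, had 13.8, 32.4 and 44.8 CPM in cluster 9 (-0.49 ± 0.10, adjusted p = 0.00012) and 68.6, 63.2 and 75.8 CPM in cluster 10 (0.36 ± 0.10, adjusted p = 0.0171).

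Gla, the alpha-galactosidase that is deficient in Fabry disease (mm10 chrX:134588149-134601125), went against the other called hydrolases of cluster 7. It had 34.6, 37.1 and 51.04 CPM there and 77.4, 131 and 86.9 CPM in the inflammatory-like class, without overlap. The log2 difference in cluster 7 was -1.12 ± 0.19 (adjusted p = 6e-05; -0.95 on library totals), whereas Hexa (0.24 ± 0.06), Man2b1 and Asah1, the acid ceramidase (0.31 ± 0.07), were called higher in that class. Gusb, the beta-glucuronidase, was lower in cluster 9 (-0.48 ± 0.09, adjusted p = 3e-05) and among LYVE-1 resident-like cells (-0.36 ± 0.08, adjusted p = 0.00095). Glb1, the beta-galactosidase, was higher in cluster 10 (0.40 ± 0.11, adjusted p = 0.00968) and lower in cluster 9 (-0.30 ± 0.10, adjusted p = 0.0219), and Tmppe overlaps it on the same strand. Tpp1, a tripeptidyl peptidase, was higher among LYVE-1 resident-like cells (0.30 ± 0.07, adjusted p = 0.00075) and lower in the cycling-like class (-0.35 ± 0.07, adjusted p = 0.0002).

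Of the lumen proteins, Grn had 641, 534 and 533 CPM in cluster 0 and 1350.2, 957 and 1015 CPM among LYVE-1 resident-like cells. Cluster 0 was lower in every mouse (-0.44 ± 0.07, adjusted p = 1.1e-05), and LYVE-1 resident-like cells were called higher (0.32 ± 0.07, adjusted p = 0.00044). In the interferon-like class, Grn (951 and 1011 CPM in mice 2 and 3; 0.31 ± 0.08, adjusted p = 0.0204) and Npc2 (1518 and 1446 CPM; 0.31 ± 0.07, adjusted p = 0.00299) were the only 2 of the 35 genes that were called. Psap had 4461, 4236 and 4116 CPM in cluster 10 (0.25 ± 0.06, adjusted p = 0.00765) and 2892, 2481 and 2059 CPM in cluster 6 (-0.35 ± 0.07, adjusted p = 0.00021), without overlap.

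Tfeb (mm10 chr17:47737030-47792419) was low everywhere but differed between classes more than all of the 35 genes but Cd63. It had 8.24, 9.53 and 10.3 CPM in cluster 0 and 10.3, 12.7 and 14.3 CPM in cluster 9, and 29.4, 32.1 and 29.4 CPM in cluster 10, 23.99, 36.3 and 29.4 CPM in cluster 7 and 29.5, 30.6 and 21.2 CPM in the heat-shock and immediate-early-like class. The 2 low classes lay below the 3 high ones in every mouse. The log2 differences were -0.67 ± 0.13 (adjusted p = 0.0002), -0.47 ± 0.12 (0.00283), 0.78 ± 0.14 (0.00018), 0.77 ± 0.12 (2.9e-06) and 0.66 ± 0.12 (0.00021), and each call held on library totals. These are RNA levels, and TFEB activity, which depends on where the protein is, was not measured.

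Read by class, the cycling-like cells had the most genes called in 1 direction. With TMM 23 of the 35 were called lower (12% of all tested genes) and 0 higher (17.1%), and edgeR gave 0 higher at an unadjusted p under 0.05 too, as did DESeq2. On library totals 14 were lower (4.83% of genes), namely Asah1, Atp6ap1, Atp6v0b, Atp6v1e1, Cd63, Cd68, Gaa, Hexa, Lamp1, Lamp2, Npc2, Pld3, Psap and Tpp1, and Gusb was higher (28.6% of genes). With TMM the membrane genes contributed 6 of 7, the hydrolases 6 of 10, the pump 8 of 14 and the lumen proteins 3 of 3, and Tfeb was not called. The median log2 difference over the 35 genes was -0.31, against 0.00 over all tested genes. Leaving out mouse 2 gave 13 lower genes (3.53% of all genes) and leaving out mouse 3 gave 12 (3.85%). The class joins cluster 4 and the shallow cluster 12 (median 2000 UMIs), whose membrane genes summed to 3305 ± 113 and 4243 ± 189 CPM, so the low membrane sum was that of cluster 4.

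Cluster 9 had 13 genes lower (12.4% of genes) and 3 higher (14.4%), and all 16 calls held on library totals. Over all tested genes, 1027 of 1138 lower and 1315 of 1323 higher calls of this class held. The lower genes were the hydrolases Asah1, Gaa, Glb1, Gusb, Hexa and Man2b1, the membrane proteins Cd63, Cd68 and Scarb2, the pump genes Atp6ap2 and Atp6v1d, Npc2 and Tfeb. The higher genes were Atp6v1b2, Atp6v1e1 and Lamp2. Leaving out mouse 2 gave 8 lower genes (2.18% of all genes), leaving out mouse 3 gave 10 lower (3.83%) and 2 higher (8.63%), and there were 6 lower (4.47%) when every cell was thinned to 2000 UMIs. Mouse 2 held 242 of the 484 cells and mouse 1 only 12.

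The inflammatory-like class was the converse of the cycling-like one with TMM: 17 genes were called higher (13.3% of genes) and 0 lower (10.8%), with 0 lower also at an unadjusted p under 0.05 and in DESeq2. On library totals 8 were higher (7.85% of genes), namely Asah1, Gaa, Man2b1 and Pld3 among the hydrolases, Cd63, Npc1 and Scarb2 in the membrane, and Atp6v1e1. Atp6v1b2, Atp6v1f and Tfeb were then lower, where 19.2% of all genes were. Leaving out mouse 2 gave 3 higher genes (4.36% of all genes), leaving out mouse 3 gave 8 (7.65%), and thinning to 2000 UMIs gave 7 (8.05%). This class had the lowest median depth.

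Cluster 10 had 9 genes higher (6.11% of genes) and 0 lower (7.14%), with 2 lower at an unadjusted p under 0.05 in edgeR and 0 lower in DESeq2. The 9 were the hydrolases Gaa, Glb1, Lipa and Pld3, the membrane proteins Cd63 and Cd68, Psap, Atp6v1b2 and Tfeb. They held on library totals, as did all 563 higher calls of this class over all tested genes. On library totals 23 genes were higher (15.5% of genes) and 0 lower (3.97%). There were 3 higher genes without mouse 2 (0.979% of all genes) or after thinning (1.04%) and 1 without mouse 3 (1.04%). The class had 20 cells in mouse 1 and 55 in mouse 2. Membrane genes summed to 4934, 5323 and 5794 CPM, above the 2592, 2949.7 and 3349 CPM of cluster 9 and the 3304, 3391 and 3434 CPM of the cycling-like class in every mouse.

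**Figure D4:**
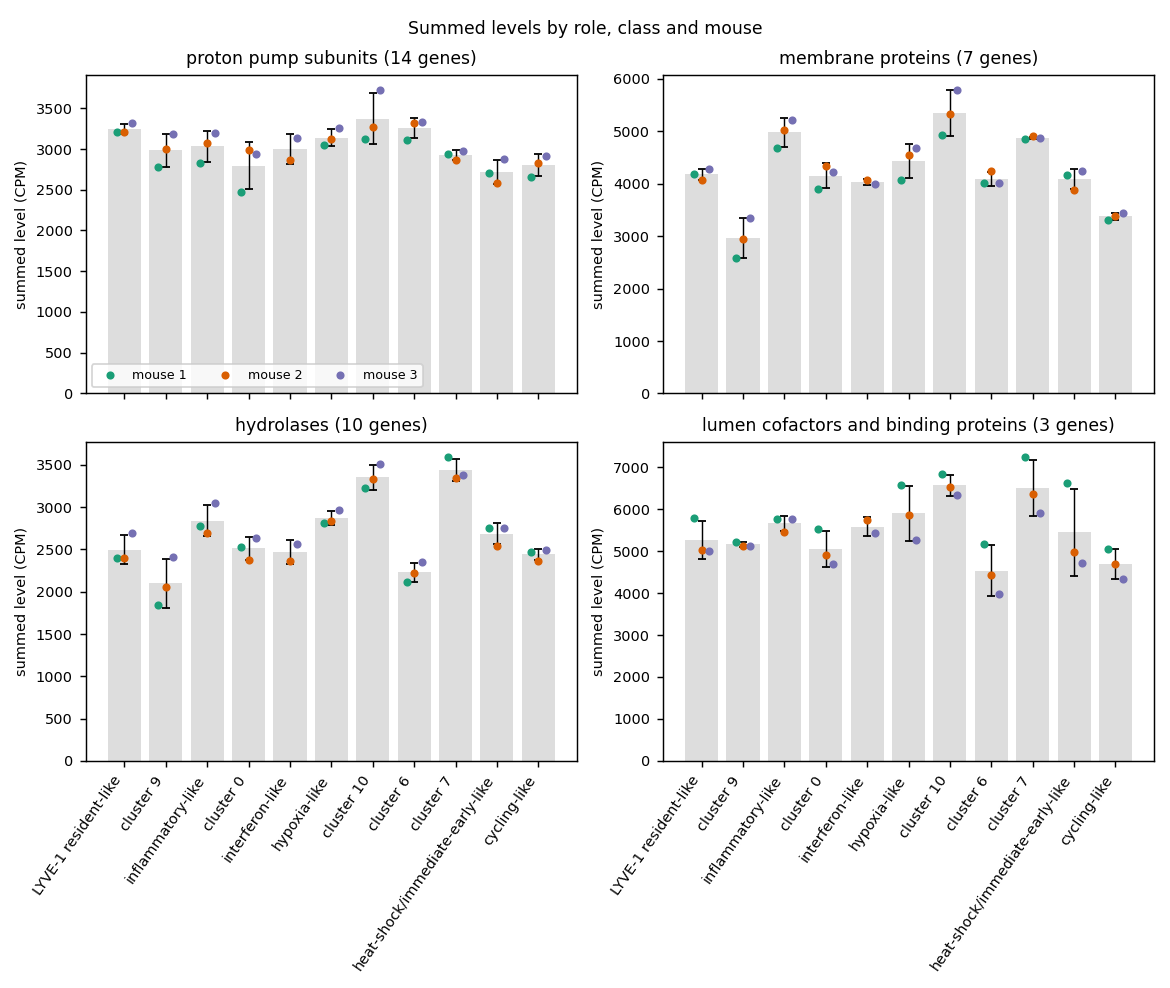
Summed levels of the pump, membrane, hydrolase and lumen genes in each macrophage class (points, 1 per mouse, CPM of the library total; grey bars from 0 and black lines, mean ± SD over the mice with at least 10 cells). Membrane sums run from 2964 CPM in cluster 9 to 5350.0 CPM in cluster 10 and hydrolase sums from 2102 CPM in cluster 9 to 3438 CPM in cluster 7, while pump sums span 2721 to 3374 CPM.

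In cluster 0 the higher calls were made with TMM alone. With TMM 9 were higher (13.2% of genes) and 5 lower (10.5%), and on library totals 0 were higher (5.25%) and 13 lower (31% of genes). The TMM-only higher genes were Atp6ap2, Atp6v0e, Atp6v1f, Cd63, Cd68, Gusb, Man2b1, Npc2 and Scarb2. On library totals these 9 differed by between -0.04 and 0.25 on the log2 scale, 7 of them above 0, and none was called lower. Lower on both scalings were Atp6v1b2, Grn, Mcoln1, Pld3 and Tfeb. Leaving out mouse 2 gave 2 higher and 3 lower genes (6.19% and 2.98% of all genes), and leaving out mouse 3 gave 3 and 3 (6.21% and 2.29%). When cells were clustered at the lower resolution of 0.5, Pld3 differed by 0.0038 in the matching class. Cluster 0 had the highest sum of dendritic cell markers, 62.8 CPM with 7 of 8 detected and Clec9a at 0, against 3.55 to 50.1 CPM in the other classes, and their part was not tested.

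The LYVE-1 resident-like class had 5 genes higher (12.6% of genes) and 4 lower (8.52%), all held on library totals. Over all tested genes, all 1156 higher calls and 415 of 785 lower calls of this class held. Atp6v1a, Grn, Lamp2, Mcoln1 and Tpp1 were higher, and Gusb, Man2b1, Psap and Scarb2 lower. The counts were 3 and 3 without mouse 2 (4% and 1.2% of all genes), and 2 and 2 without mouse 3 (4.51% and 1.31%). The class joins clusters 2 and 8 (median 23990 and 8525 UMIs), whose hydrolase genes summed to 2620 ± 183 and 2231 ± 92.2 CPM. With the clusters kept apart, the larger, cluster 2, had 3 higher and 1 lower (8.62% and 5.82% of all genes). The heat-shock and immediate-early-like class had 3 higher (8.11% of genes: Man2b1, Tfeb and, with TMM only, Npc2) and 3 lower (6.66%: Atp6v1e1, Cd68 and Grn). On library totals 2 were higher (6.58% of genes) and 7 lower (8.72%). With clusters and tests on separate UMIs, Grn differed by 0.022. Its counts were 1 and 1 without mouse 2 (1.98% and 1.16% of all genes), and 2 and 1 without mouse 3 (3.19% and 1.81%). The hypoxia-like class had 2 higher, Cd68 and Pld3 (4.79% of genes), and 0 lower (3.63%), with 2 lower at an unadjusted p under 0.05 in edgeR and 0 in DESeq2. The interferon-like class had 2 higher (3.21% of genes) and 0 lower (0.347%), with 5 lower at an unadjusted p under 0.05 and 1 in DESeq2. In both of these classes none of the 35 genes was called without mouse 2 or without mouse 3, when 1.04% and 1.55% of all genes were called in the hypoxia-like class and 2% and 1.23% in the interferon-like class. The interferon-like class also had the highest sum of T cell markers, 68.6 CPM with all 8 detected, and its part in these calls was not tested.

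With TMM, clusters 6 and 7 showed opposite directions for the pump and for the hydrolases. Against all other classes, cluster 6 had 11 genes higher (11.7% of genes) and 6 lower (6.62%): 7 of 14 pump genes were called, each higher, and 4 of 10 hydrolases, each lower. Called on both scalings were Atp6v1a, Atp6v1c1, Atp6v1e1, Cd68 and Npc1 as higher (6.97% of genes) and Glb1, Gusb, Lipa, Man2b1, Psap and Scarb2 as lower. On library totals alone 9 were lower (13.7% of genes). Cluster 7 had 6 higher (18.2% of genes) and 9 lower (15.8%): 7 of 14 pump genes were called, each lower, against 3 hydrolases higher and 1 lower. Asah1, Hexa, Lamp1, Man2b1, Scarb2 and Tfeb were higher and Atp6v1a, Atp6v1c1, Atp6v1e1, Atp6v1h and Gla lower (8.57% of genes) on both scalings. On library totals 16 were higher (32.6% of genes). Without mouse 2 the counts were 2 higher and 3 lower in cluster 6 (4.52% and 1.52% of all genes) and 2 higher and 4 lower in cluster 7 (6.37% and 6.64%). Without mouse 3 they were 4 and 1 in cluster 6 (6.05% and 1.74%) and 5 and 5 in cluster 7 (11.1% and 8.8%).

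The pair was then compared directly, a comparison chosen after the values of the classes were seen. With TMM, 11 of the 14 pump genes were higher in cluster 6 than in cluster 7 (17.6% of all genes were higher and 17.5% lower). On library totals 4 were higher (9.58% of genes): Atp6v1a, Atp6v1c1, Atp6v1e1 and Atp6v1h, all subunits of V1. Atp6v1e1 differed by 1.09 ± 0.11 on the log2 scale (adjusted p = 1.1e-10; 0.82 on library totals) and Atp6v1c1 by 1.03 ± 0.14 (1.8e-07; 0.76). Atp6v1a differed by 0.85 ± 0.12 (6.4e-07; 0.58) and Atp6v1h, the regulatory H subunit, by 0.76 ± 0.16 (0.00019; 0.49). Of the hydrolases, Glb1, Gusb, Lipa and Man2b1 were lower in cluster 6 on both scalings, Man2b1 by most (-0.82 ± 0.10, adjusted p = 3.4e-08), and Gla was higher (1.38 ± 0.23, adjusted p = 7e-05). Cd68 was higher (0.51 ± 0.09), and Scarb2 (-0.59 ± 0.10), Psap (-0.44 ± 0.09) and Tfeb (-0.97 ± 0.18, adjusted p = 4.4e-05) were lower in cluster 6, also on both. The count of higher pump genes was 4 without mouse 2 (8.21% of all genes) and without mouse 3 (10.7%), and 5 without the mouse block (10.2%) and, of 13 tested, with thinned cells (9.65%). The median difference over all genes was -0.05 with TMM and -0.31 on library totals. The pattern was not that of the wider lysosome list described below. With TMM, 1 of its 12 tested pump genes was higher in cluster 6 than in cluster 7 and 2 were lower. Of its 33 other hydrolases 6 were higher and 3 lower, and of its 12 tested cathepsins 1 was higher and 7 lower. Against all other classes, cluster 6 had 9 of these 33 hydrolases higher and 1 lower (11.7% and 6.62% of all genes).

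**Figure D5:**
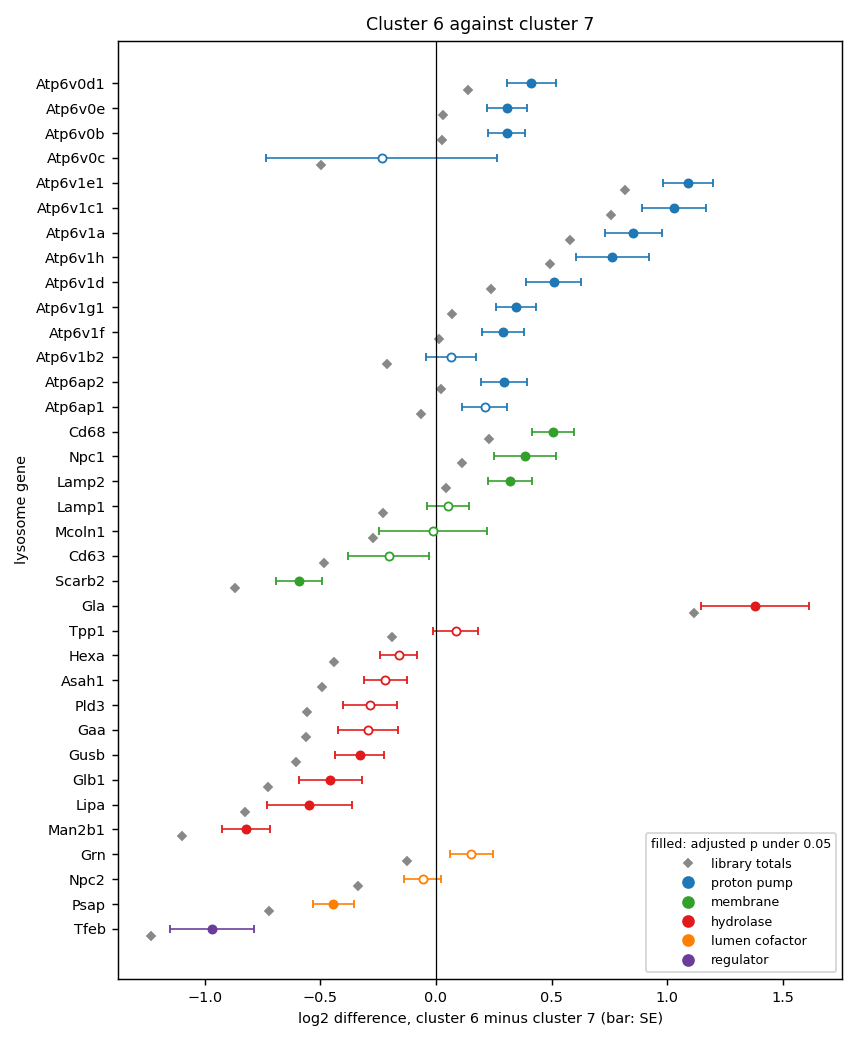
Log2 difference of the 35 lysosome genes between clusters 6 and 7 (circles and SE, edgeR with TMM; filled, adjusted p under 0.05; grey diamonds, the same difference on library totals), coloured by role. Most pump genes lie to the right, with Atp6v1e1 and Atp6v1c1 above 1, and most hydrolases to the left, with Gla at 1.38 and Tpp1 at 0.08 on the right, and the diamonds are shifted to the left of the circles for every gene.

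The co-variation of the genes over the 32 sums of class and mouse is given as a description, since the sums share mice, classes and scaling. The median Pearson r between pairs of pump genes was 0.31, between pairs of hydrolase and lumen genes 0.48, and between the pump and the hydrolase and lumen genes 0.19. Hexa tracked the summed level of the other genes most closely (r = 0.88), followed by Asah1 (0.80), Pld3 (0.79) and Gaa (0.79), whereas Atp6v1e1 (-0.20), Lamp2 (-0.09) and Gla (-0.05) did not. With Tfeb, r was 0.63 for Hexa, 0.58 for Man2b1 and -0.56 for Atp6v1e1. The closest pairs were Scarb2 with Man2b1 (r = 0.92) and Cd63 with Gaa (r = 0.91).

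A wider list of 123 other lysosome genes, of which 111 could be tested, was read from the same fit. Like the 35 genes, more of them were lower than higher in the cycling-like class, 39 and 1 (12% and 17.1% of all genes). On both scalings these were 27 and 1 (4.83% and 17.1%). In cluster 9, 32 were lower and 14 higher (12.4% and 14.4%), and 28 and 14 on both scalings (11.1% and 14.3%). In the inflammatory-like class, 37 were higher and 5 lower (13.3% and 10.8%), and 25 and 5 on both scalings (7.85% and 10.8%). In cluster 7 the balance was the other way round with TMM, with 22 higher and 11 lower (18.2% and 15.8% of all genes) against 6 and 9 of the 35. On both scalings 22 were higher and 2 lower (18.2% and 8.57% of all genes), against 6 and 5 of the 35, so the opposite balance was not seen there. The balance also differed in the hypoxia-like class, with 6 higher and 11 lower (4.79% and 3.63% of all genes) against 2 and 0. In cluster 0 it was 16 and 16 (13.2% and 10.5% of all genes) against 9 and 5. With TMM, the higher counts of the wider list in cluster 7, the hypoxia-like class and cluster 0 lay near the share of all genes called higher. The difference between the lists was not tested. The aspartyl protease Ctsd, a cathepsin of this acidic lumen, had 4098, 4906 and 6294 CPM in cluster 10 (1.01 ± 0.11, adjusted p = 2.2e-06). Ctsl, a cysteine cathepsin, was lower in the cycling-like class (118, 140.4 and 156 CPM; -1.16 ± 0.28, adjusted p = 0.00324) and higher among LYVE-1 resident-like cells (739, 293 and 402 CPM; 0.78 ± 0.23, adjusted p = 0.0213). In cluster 9, Acp5, the tartrate-resistant phosphatase (-1.19 ± 0.24, adjusted p = 0.00073), and Lgmn, the asparaginyl endopeptidase (-0.90 ± 0.08, adjusted p = 1.2e-12), were lower, while Naaa, an acid amidase, was higher there (269, 131 and 172 CPM; 1.26 ± 0.12, adjusted p = 1.1e-09).

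Pump subunits outside the 35 moved in their own ways. Atp6v0d2, the d isoform best known from osteoclasts, had 12.2, 20.05 and 36.2 CPM in cluster 10 (2.21 ± 0.30, adjusted p = 2.2e-05) and 27.4, 10.3 and 14.8 CPM in the hypoxia-like class (1.37 ± 0.30, adjusted p = 0.00445), against 1.18, 2.01 and 2.54 CPM in cluster 0 (-1.46 ± 0.43, adjusted p = 0.0135). At a clustering resolution of 0.5, its log2 difference in the class matching cluster 0 was 0.00071, so the lower level was not seen there. The other d subunit, Atp6v0d1, which is among the 35, was called in none of these classes with TMM and was called higher in cluster 10 on library totals (0.27). Tcirg1, the a3 subunit, had 206, 180.1 and 154 CPM in the inflammatory-like class (0.62 ± 0.10, adjusted p = 5.6e-06) and 92.6, 105 and 112 CPM in the cycling-like class (-0.46 ± 0.09, adjusted p = 0.0002). Atp6v0a1, the a1 subunit, was higher among LYVE-1 resident-like cells (79.7, 75.5 and 77.3 CPM; 0.42 ± 0.08, adjusted p = 0.00021). Gpnmb, a TFEB-family target of lipid-laden macrophages, varied widely between mice: it had 19.9, 37.6 and 5.66 CPM in the hypoxia-like class (2.13 ± 0.62, adjusted p = 0.0384) and 41.6, 29.1 and 9.26 CPM in cluster 10 (adjusted p = 0.0611).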

How the data were processed

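Cells of 3 tumours, 1 library each, had been sequenced with a 10x 3' kit. Per the labels and the submitters' processing notes, the authors used Cell Ranger 3.0.2 and mm10, and the deposited values are UMI counts without normalization for barcodes called as cells. The version of their gene annotation is not given in the sources used here. Total counts were 12454677, 41097369 and 86178419 UMIs in mice 1, 2 and 3 (1074, 2470 and 7429 barcodes).

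Barcodes with fewer than 500 genes or more than 15% mitochondrial UMIs were removed (411, 362 and 451). Scrublet called 11 doublets (0.113%), too few for a working caller. The 35 genes, the other lysosome genes, and ribosomal and mitochondrial genes (276 in all) stayed out of the Leiden clustering (scanpy 1.11.5, resolution 1.0, 2000 variable genes, 30 components, 15 neighbours, genes scaled within mouse). A cluster took the name of a list if 3 or more of its markers were in 10% or more of the cells and 0.5 or more above the median of the other clusters (log2), with at least 1 among its 10 leading genes. Marker genes define classes and are not results, and the names are rebuilt here.

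UMIs were summed per mouse and class with at least 10 cells, in classes with at least 2 such mice, giving 32 sums of 290140 to 23655000 UMIs. The test of these sums was that of edgeR 4.0.16 under R 4.3.3 (TMM, filterByExpr, 2-sided quasi-likelihood F test with robust fitting). The mouse was a block because the classes come from the same 3 mice. P-values were adjusted by Benjamini and Hochberg within each contrast over the 9211 genes, of 10642 in the fit, that were not used to cluster, with a threshold of 0.05. The SE of a log2 difference is its size over the square root of F. The test was checked on simulated data. Gene positions came from the GENCODE annotation of mm10 by gene ID, and promoters from RefSeq (GRCm38.p6). Alternatives were other clustering resolutions, DESeq2 size factors and the DESeq2 Wald test, no low-count filter, no block, each mouse left out, cells thinned to 2000 UMIs, clusters and tests on separate UMIs, other cell filters and, chosen after the data were seen, clusters of 1 name kept apart and library totals in place of TMM.

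Up to 8 higher and 5 lower genes per class with the same sign in every mouse were named by size, and further called genes were listed. Levels per mouse were given for the 12 genes with the widest range and for Lamp1, Cd63, Cd68, Atp6v0c, Tfeb and Mcoln1. Other lysosome genes were taken from the 3 largest in each direction of a class, plus Atp6v0d2, Tcirg1, Atp6v0a1 and Gpnmb. Some of the genes this rule names are not reported here. The 35 genes and all lists were chosen with earlier results of these data known. In summed cells, fewer expressing cells and less RNA per cell cannot be told apart.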

Additional observations from a re-analysis of the deposited data

How the results depend on the processing

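The count of genes that differ among the classes kept within 1.5 times of 34 under each alternative (24 to 34, where 35% to 81.3% of all genes differed). The 136 named differences of gene and class had been chosen as called, with the same sign in every mouse. Refits of the same sums, or without 1 mouse, could therefore hardly reverse them, and their agreement is no support. The directions held in all but 6 cases. These were Pld3 (0.0038) and Atp6v0d2 (0.00071) in cluster 0 at a clustering resolution of 0.5, Tfec in cluster 0 at 1.5 (0.44) and on separate UMIs (0.51), and in the heat-shock and immediate-early-like class on separate UMIs Grn (0.022) and Atp6v0d2 (0.79), against -0.32, -1.46, -0.86, -0.21 and -1.89. The cause was not tested. Calls were lost as well: in 359 of 2215 repeats, over 100 of the 136 differences, the direction stayed and the adjusted p rose past 0.05, most often without mouse 2 (72), without mouse 3 (61), without the replicate block (56) and with thinned cells (55).

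Counts of the 35 genes per class are given below as higher and lower, and should be read beside the share of all genes called in a class. That share ran over the classes from 3.56% to 34% in the reported fit, 1.04% to 13% without mouse 2, 1.23% to 19.9% without mouse 3, 0.999% to 19.1% with no replicate block (from 21.1% to 3.75% in LYVE-1 resident-like and from 23.6% to 8.41% in cluster 0), 1.66% to 16.7% with thinned cells and 3.51% to 41.2% on library totals. With 1 of the 3 mice left out, the higher counts were: LYVE-1 resident-like 2 to 4, cluster 0 2 to 13, cluster 10 1 to 13, cluster 6 2 to 10, cluster 7 2 to 8, cluster 9 2 to 4, heat-shock 1 to 3, hypoxia-like 0 to 3, inflammatory-like 3 to 20, interferon-like 0 to 3. The lower counts were: LYVE-1 resident-like 2 to 6, cluster 0 3 to 4, cluster 6 1 to 6, cluster 7 4 to 9, cluster 9 8 to 14, cycling-like 12 to 27, heat-shock 1 to 5, hypoxia-like 0 to 1. On library totals they were 8 higher in LYVE-1 resident-like, 0 and 13 in cluster 0, 23 higher in cluster 10, 5 higher in cluster 6, 16 and 5 in cluster 7, 1 and 14 in cycling-like, 7 lower in heat-shock, and 8 and 3 in inflammatory-like. With no replicate block they were 1 and 1 in LYVE-1 resident-like, 3 and 3 in cluster 0, 3 higher in cluster 10, 4 and 1 in cluster 6, 5 lower in cluster 7, 8 lower in cluster 9, 12 lower in cycling-like, 1 lower in heat-shock, 0 higher in hypoxia-like, 7 higher in inflammatory-like and 0 higher in interferon-like.

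With cells thinned to 2000 UMIs, where 34 genes could be tested, they were 3 and 1 in cluster 0, 3 higher in cluster 10, 2 and 3 in cluster 6, 6 lower in cluster 9, 11 lower in cycling-like, 0 and 0 in heat-shock, 0 higher in hypoxia-like, 7 higher in inflammatory-like and 0 higher in interferon-like. At resolution 0.5 they were 10 higher in LYVE-1 resident-like, 18 and 3 in cluster 0, 5 lower in cluster 7, 8 and 5 in heat-shock and 5 higher in hypoxia-like. At this resolution cluster 7 and the heat-shock class were matched to the same class, so their counts come from 1 comparison. Over the classes, 3.51% to 37% of all genes were called at this resolution. At resolution 1.5 they were 3 higher in LYVE-1 resident-like, 4 higher in cluster 6, 5 lower in cluster 7, 0 lower in heat-shock, 11 higher in inflammatory-like and 0 higher in interferon-like. On separate UMIs they were 3 and 1 in LYVE-1 resident-like, 2 lower in cluster 0, 5 lower in cluster 7, 7 lower in cluster 9, 15 lower in cycling-like and 0 lower in heat-shock. Without the low-count filter they were 6 higher in cluster 6, 5 lower in cluster 7, 1 lower in heat-shock and 0 higher in interferon-like. With same-name clusters apart they were 3 and 1 in LYVE-1 resident-like and 1 higher in interferon-like. The DESeq2 Wald test gave 5 lower in heat-shock and 1 lower in interferon-like, and the stricter cell filter 1 lower in heat-shock. All other counts stayed within 1.5 times. The share of all genes called ran over the classes from 3.6% to 29.8% at resolution 1.5, and from 4.12% to 25.7% on separate UMIs. It ran from 2.74% to 18.2% without the low-count filter and from 3.81% to 34.8% with same-name clusters apart. In the DESeq2 Wald test it was 3.62% to 33.9%, with the stricter cell filter 3.57% to 32.7% and without mouse 1 5.01% to 31.1%.

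At resolution 0.5 clusters 6 and 10 and the inflammatory-like class had no matching class, and on separate UMIs neither cluster 10 nor the hypoxia-like and inflammatory-like classes did. No class was under 0.5 of the median depth, so leaving out shallow classes gave no value. With 3 mice precision is limited. Without mouse 2 or mouse 3 most counts fell, whereas without mouse 1 20 counts per class stayed within 1.5 times and 2 did not. The loss of calls therefore depended on which mouse was left out and not only on their number, and its cause was not tested. Without mouse 2 or mouse 3 the interferon-like class is left with 1 mouse and is assumed to vary like the others.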

Other observations

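Further genes of the wider lysosome list are given here with their levels in mice 1, 2 and 3 and the edgeR log2 difference from the mean of the other classes (TMM, all past an adjusted p of 0.05). LYVE-1 resident-like cells were higher in Mcoln2, a channel of the TRPML family, at 9.87, 7.98 and 5.79 CPM (2.18 ± 0.26), and in Tfec, a relative of Tfeb (0.86 ± 0.18), and lower in the cathepsins Ctss (2822, 3142 and 4223 CPM; -0.47 ± 0.06) and Ctsz (-0.47 ± 0.07). Slc15a3, a peptide and histidine transporter of the lysosomal membrane, was higher in the inflammatory-like class at 1008, 869.8 and 1042 CPM (1.18 ± 0.07) and in cluster 0 at 655, 836 and 910.2 CPM (0.97 ± 0.07), and lower in cluster 7 at 223, 232 and 249 CPM (-1.37 ± 0.09), without overlap. Acp5 rose in the same pair of classes (601, 2346 and 1285 CPM in cluster 0, 1.31 ± 0.18; 720.1, 1767 and 916 CPM in the inflammatory-like class, 0.95 ± 0.19), with a wide spread between mice. In cluster 0, Tfec was lower (-0.86 ± 0.29), and Igf2r, the mannose 6-phosphate receptor that is also called lower, had 3 UMIs in all.

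Plbd1, a phospholipase-like lysosomal protein, separated the classes widely. It was higher in cluster 9 at 276, 77.04 and 89.4 CPM (1.46 ± 0.22) and in cluster 6 at 113, 95.02 and 70.9 CPM (1.31 ± 0.23), and lower in cluster 10 at 36.7, 12.03 and 14.2 CPM (-1.64 ± 0.40) and in the inflammatory-like class at 19.3, 14.95 and 16.4 CPM (-1.32 ± 0.36). Cluster 9 was also higher in Sort1, the sorting receptor sortilin (1.98 ± 0.24). Cluster 10 was higher in Aga (0.49 ± 0.14) and lower in Ctsf (-1.08 ± 0.27) and Naaa (-0.74 ± 0.17). Cluster 6 was higher in Slc17a5, the sialic acid exporter (0.63 ± 0.16), and Igf2r (1.59 ± 0.50, 25 UMIs), and lower in Ctse (-1.12 ± 0.16) and Slc29a3 (-0.71 ± 0.11). Cluster 7 was higher in Slc38a9, an arginine sensor of the mTORC1 pathway (51.5, 41.4 and 25.1 CPM; 1.00 ± 0.14), Tmem55b (0.79 ± 0.10) and Manba, the beta-mannosidase (0.68 ± 0.16), and lower in M6pr (-0.39 ± 0.08) and, with TMM only, Neu1 (-0.40 ± 0.10).

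The cycling-like class was higher in Cln6 (0.45 ± 0.10) and lower in Lmbrd1 (-0.63 ± 0.08) and Fnip2 (-0.63 ± 0.15). The heat-shock and immediate-early-like class was higher in Atp6v1g2 (1.21 ± 0.42, 23 UMIs), Pla2g15 (0.70 ± 0.10) and Ctse (0.61 ± 0.13), and lower in Atp6v0d2 (-1.89 ± 0.51) and Tpcn2 (-0.56 ± 0.15). The hypoxia-like class was higher in Ctsd (0.42 ± 0.11) and lower in Clcn7 (-0.56 ± 0.14), Naaa (-0.53 ± 0.14) and Flcn (-0.51 ± 0.15). The inflammatory-like class was higher in Ctsf (0.97 ± 0.19) and lower in Tmem199 (-0.64 ± 0.19) and Lamtor5 (-0.37 ± 0.10). In mice 2 and 3 the interferon-like class was higher in Atp6v0a2 (0.75 ± 0.15) and Ncoa7 (0.68 ± 0.16) and lower in Tpcn1 (-0.82 ± 0.21).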
